A study of Homo sapiens with 6 samples.

Results

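The 10 genes described here encode core subunits of the Polycomb repressive complexes: EZH1, EZH2, EED, SUZ12 and JARID2 for Polycomb repressive complex 2 (PRC2), and RNF2, RING1, CBX2, CBX8 and PCGF2 for Polycomb repressive complex 1 (PRC1). They were chosen by symbol from a table of 37887 rows of gene symbols, with earlier results of these data known. All 10 were among the 15450 genes tested. The data are RNA-seq libraries of BT-549, an established triple-negative breast cancer (TNBC) cell line, in 2 groups of 3. The sample titles name a control shRNA (shCTL) and a PBRM1 shRNA (shPBRM1). The treatment labels assign 0.1% DMSO as vehicle to shCTL, and 500 ng/ml doxycycline (DOX), the inducer of a tet-regulated PBRM1 shRNA, to shPBRM1. The silenced gene, PBRM1, encodes a bromodomain subunit of the PBAF chromatin remodeling complex. The titles thus name a control shRNA, whereas the treatment labels describe cells with a tet-regulated PBRM1 shRNA under DMSO or DOX. Which of these the control cells were is not settled by the labels. Effects of DOX itself, of the vehicle, of the shRNA on other genes and of the silencing cannot be told apart in these groups. Only 1 cell line was used. The labels describe triplicate cultures, so that p-values measure the spread between cultures of this line.

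PRC2 places methyl groups on a lysine of the tail of histone H3, a mark of silenced developmental genes. EZH1 and EZH2 are its alternative catalytic subunits, EED and SUZ12 hold the enzyme together, and JARID2 is an accessory subunit that helps bring it to chromatin. PRC1 adds ubiquitin to histone H2A through RNF2 (RING1B) or RING1 (RING1A), pairs either enzyme with 1 PCGF protein, and in its canonical form carries a CBX protein that reads the PRC2 mark.

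PBRM1 was decreased in every shPBRM1 library. It had 5870, 7619 and 8118 raw counts in shCTL and 2598, 1591 and 2657 in shPBRM1, that is 158 ± 2.30 and 41.9 ± 1.22 CPM (SD, n = 3; CPM are counts scaled to a common library size), with a log2 fold change of -1.91 (SE 0.027, adjusted p = 9.98e-23). Total counts ranged from 36429395 to 65096297 per library, so that a detection floor of 3 counts, which covers counting error only, lay at 0.0471 to 0.0804 CPM. VIM, ZEB1, CDH2, FN1 and SPARC, markers of a mesenchymal breast cancer line, were all expressed in both groups. Each of the 5 was also called, with VIM and CDH2 higher and ZEB1, FN1 and SPARC lower, FN1 by a log2 fold change of -1.33, and their summed level was 5399 to 5598 CPM in shCTL and 4385 to 4655 CPM in shPBRM1. Of 8 markers of other cell types, only PTPRC, a leukocyte marker, passed the filter on low counts, with 26, 40 and 44 counts in shCTL and 12, 4 and 6 in shPBRM1. CD3E was at 0 in all libraries, and the 8 together summed to 1.30 to 1.73 CPM in shCTL and 0.298 to 0.566 CPM in shPBRM1. Differences were tested by quasi-likelihood in edgeR, adjusted by the Benjamini-Hochberg method over all tested genes, and a gene was called at an adjusted p under 0.05. Standard errors and 95% intervals of log2 fold changes come from the spread between libraries alone, whereas the test also draws on the spread of other genes. In bulk RNA, fewer cells expressing a gene and less RNA per cell cannot be told apart.

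The Polycomb core showed small and divergent differences. EZH2, EED and JARID2 were higher in shPBRM1 cells, by 0.19 to 0.26 on the log2 scale. EZH1 and RING1 were lower, with log2 fold changes of -0.44 and -0.59. SUZ12, RNF2, CBX2, CBX8 and PCGF2 were not called. In all, 5 of 10 members were called, against a background of 64.7% of all tested genes. By direction, 3 of 10 were higher, beside 31.5% of all tested genes, and 2 of 10 were lower, beside 33.2%. None of the 10 passed the test together with a fold change over 2, whereas 12.6% of all tested genes did. The library values of the groups did not overlap for 6 of 10 members, beside 68.3% of all tested genes. These shares lie near or below the background, so that the calls do not set the members apart from other genes. The median size of the log2 fold change was 0.17 over the members and 0.35 over all tested genes.

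**Figure D1:**
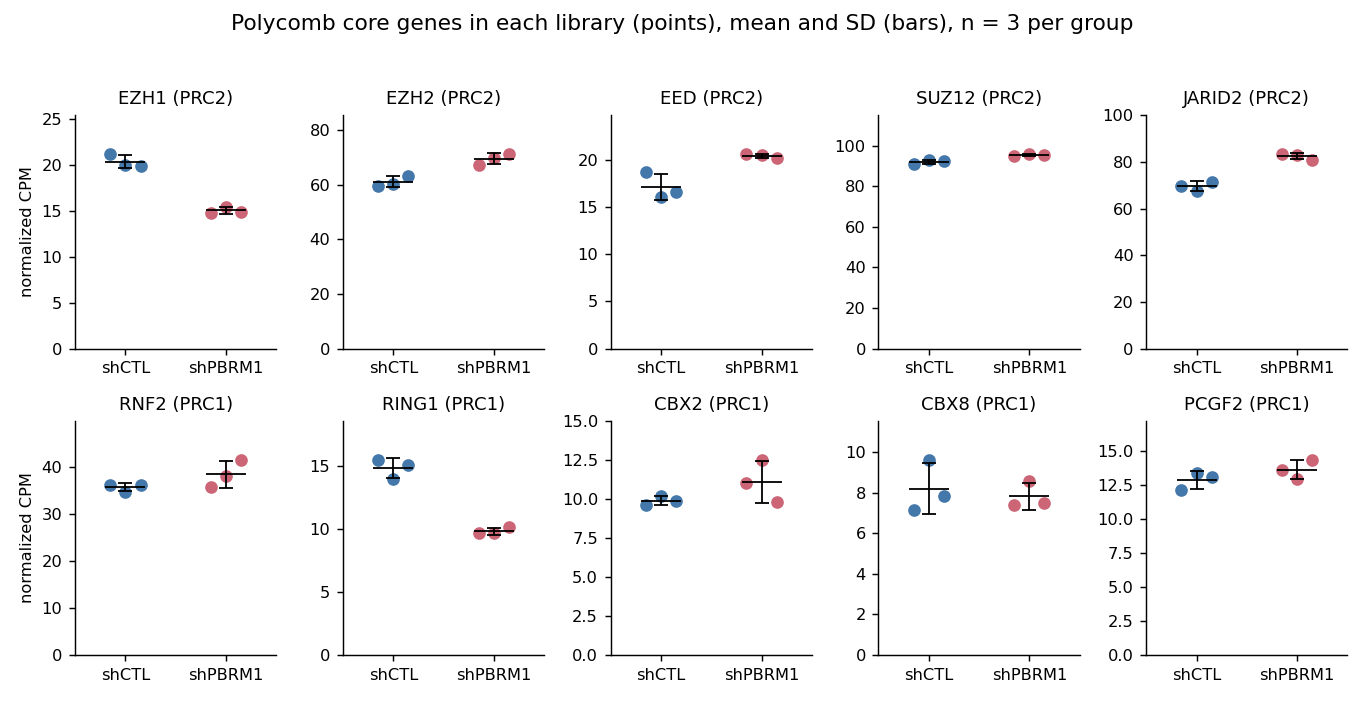
Normalized CPM (vertical axis, from 0) of the 10 Polycomb core genes in the 3 shCTL and the 3 shPBRM1 libraries; points are libraries, and bars give the mean and SD. The groups do not overlap for the 5 PRC2 genes and RING1, with EZH1 and RING1 lower and EZH2, EED, SUZ12 and JARID2 higher in shPBRM1; the SUZ12 difference was not called.

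The sequences before the transcription start of EZH1, EZH2 and RING1 are shown because the catalytic PRC2 paralogs moved in opposite directions and RING1 was the member with the largest difference. They are the 250 bases before a RefSeq start on GRCh38.p14, written 5′ to 3′ on the gene's strand. For EZH2, the start shown is the one whose window held a motif match, described below. The window of another EZH2 start, at chr7:148883436-148883735 (minus strand), held no match and is not shown. They lie at chr17:42745041-42745290 (minus strand) for EZH1, chr7:148884292-148884541 (minus strand) for EZH2 and chr6:33208250-33208499 (plus strand) for RING1.
EZH1: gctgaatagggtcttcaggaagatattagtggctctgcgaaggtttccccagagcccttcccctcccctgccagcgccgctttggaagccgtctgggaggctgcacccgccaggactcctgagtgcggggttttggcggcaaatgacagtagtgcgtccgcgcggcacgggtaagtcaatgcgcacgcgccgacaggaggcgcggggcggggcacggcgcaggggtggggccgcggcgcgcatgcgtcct
EZH2: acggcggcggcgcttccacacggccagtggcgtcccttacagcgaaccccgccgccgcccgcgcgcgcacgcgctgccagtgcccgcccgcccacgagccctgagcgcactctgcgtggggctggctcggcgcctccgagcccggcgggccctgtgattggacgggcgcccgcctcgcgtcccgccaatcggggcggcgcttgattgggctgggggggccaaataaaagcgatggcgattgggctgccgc
RING1: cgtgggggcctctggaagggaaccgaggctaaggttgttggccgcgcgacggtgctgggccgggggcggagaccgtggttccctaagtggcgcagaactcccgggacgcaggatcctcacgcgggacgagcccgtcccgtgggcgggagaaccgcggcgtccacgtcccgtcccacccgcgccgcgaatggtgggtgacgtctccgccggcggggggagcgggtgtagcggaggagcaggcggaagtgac
All 3 stretches are rich in G and C, at 67.6% for EZH1, 75.6% for EZH2 and 72.8% for RING1, with 26, 38 and 34 CG dinucleotides. The 3 stretches were chosen after the values were seen, and a relation of G and C content to the differences was not tested.

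Of the 10 members, 8 had an entry in the RefSeq promoter table, with 10 windows of 250 bases before to 50 bases after a start; CBX2 and CBX8 had none. The windows were searched on both strands for 3 E2F-type motifs, the letters TTTGGCGC, TTTCGCGC and TTTCCCGC, and for an ISRE-type motif, GAAANNGAA, the kind of element read by interferon regulatory factors. TTTGGCGC was found in 1 member window, that of the EZH2 start shown above, and in 0.652% of all 35116 windows. TTTCCCGC was found in 1 window, that of SUZ12, and in 1.63% of all windows. TTTCGCGC, present in 0.515% of all windows, and GAAANNGAA, present in 8.11%, were found in no member window. The matches are shown with the motif in capitals, at chr7:148884272-148884301 (minus strand) for EZH2 and chr17:31936807-31936836 (plus strand) for SUZ12.
EZH2: gggctgccgcgTTTGGCGCtcggtccggtc
SUZ12: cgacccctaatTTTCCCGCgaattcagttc
The EZH2 match begins at base 2 of the transcript and the SUZ12 match 189 bases before the start. Of these genes, EZH2 was called higher and SUZ12 was not called. A match of letters is a description of the sequence and does not show that a factor binds there.

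To determine how the PRC2 enzymes differed between the groups, the catalytic subunits were examined first. EZH1, the catalytic subunit known for its expression in resting and differentiated cells (chr17:42700275-42745049, GENCODE v29 on GRCh38), had 21.2, 19.9 and 19.8 CPM in shCTL and 14.8, 15.4 and 14.8 CPM in shPBRM1. Every shPBRM1 library lay below every shCTL library. The log2 fold change was -0.44 (SE 0.035, 95% interval -0.53 to -0.34, adjusted p = 3.33e-06). EZH2, the catalytic subunit known for its expression in dividing cells (chr7:148807383-148884321), had 59.4, 60.2 and 63.2 CPM in shCTL and 67.3, 69.9 and 71.2 CPM in shPBRM1. Every shPBRM1 library lay above every shCTL library, at a log2 fold change of 0.19 (SE 0.036, 95% interval 0.087 to 0.29, adjusted p = 2.06e-04). By size, the EZH1 difference exceeded that of 59.0% of all tested genes and the EZH2 difference that of 29.1%.

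EED, which binds the methylated histone tail and stimulates the enzyme (chr11:86244544-86278813), had 18.7, 16.0 and 16.6 CPM in shCTL and 20.6, 20.5 and 20.2 CPM in shPBRM1. The shCTL libraries were spread more widely than the shPBRM1 libraries, without overlap between the groups. EED was higher in shPBRM1 by 0.26 on the log2 scale (SE 0.067, adjusted p = 1.98e-03). JARID2 (chr6:15246296-15522040) had 69.8, 67.4 and 71.7 CPM in shCTL and 83.6, 83.0 and 81.1 CPM in shPBRM1. It was higher by 0.25 on the log2 scale (SE 0.029, adjusted p = 2.53e-06), with each shPBRM1 library above the highest shCTL library. SUZ12, the scaffold on which the other PRC2 subunits assemble (chr17:31937018-32001045), was the member with the smallest difference. It had 90.8, 92.8 and 92.3 CPM in shCTL and 94.9, 95.9 and 95.5 CPM in shPBRM1. These values did not overlap, but the log2 fold change was 0.053 (95% interval 0.024 to 0.081), larger in size than that of 8.66% of all tested genes, and was not called (adjusted p = 0.157). Summed over the 5 PRC2 members, the libraries held 256 to 264 CPM in shCTL and 281 to 285 CPM in shPBRM1.

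Among the PRC1 members, RING1 alone was called. RING1 (chr6:33208495-33212722) had raw counts of 579, 681 and 764 in shCTL and 582, 377 and 648 in shPBRM1. Relative to the library sizes, these were 15.5, 14.0 and 15.1 CPM and 9.69, 9.69 and 10.2 CPM, so that all shPBRM1 libraries lay below all shCTL libraries. RING1 was lower by 1.51-fold (log2 fold change -0.59, SE 0.050, 95% interval -0.73 to -0.45, adjusted p = 3.26e-07), a difference larger than that of 71.4% of all tested genes. No other annotated gene overlaps RING1. Within 100 kb of RING1, 10 other genes were tested. Of these, 4 were higher in shPBRM1 (SLC39A7, VPS52, RPS18 and WDR46, by 0.18 to 0.33 on the log2 scale) and 0 were lower. These counts stand beside 31.5% higher and 33.2% lower over all tested genes, and with 10 genes they are a description. TAPBP, with a log2 fold change of -0.89 and a wide spread between libraries (SE 0.92), was close to the threshold (adjusted p = 0.0560).

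RNF2, the paralog of RING1 and the major H2A ubiquitin ligase in many cells (chr1:185045364-185102608), had 36.2, 34.7 and 36.2 CPM in shCTL and 35.8, 38.0 and 41.5 CPM in shPBRM1. The groups overlapped, and RNF2 was not called (log2 fold change 0.11, 95% interval -0.073 to 0.29, adjusted p = 0.0935). The RNF2 estimate varied with the library left out. Without shPBRM1 replicate 1, the log2 fold change was 0.16 and the adjusted p was 0.0187. Without shPBRM1 replicate 3, they were 0.048 and 0.483. PCGF2 (MEL18), a partner of the RING proteins in canonical PRC1 (chr17:38733897-38749817), had 12.2, 13.4 and 13.1 CPM in shCTL and 13.6, 13.0 and 14.4 CPM in shPBRM1. It was not called either (log2 fold change 0.084, 95% interval -0.083 to 0.25, adjusted p = 0.335).

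CBX2 and CBX8, readers of the PRC2 mark, lie next to each other on chromosome 17 (79778132 to 79787983 and 79792132 to 79801683) and had the lowest mean levels per kilobase of the members in both groups. In shPBRM1, the library range of CBX2, up to 2.20 CPM per kilobase, overlapped that of EZH1, from 2.12. CBX2 had 9.62, 10.2 and 9.89 CPM in shCTL and 11.0, 12.5 and 9.79 CPM in shPBRM1. Of the shPBRM1 libraries, 2 lay above the shCTL range and 1 within it, with a log2 fold change of 0.16 (95% interval -0.14 to 0.45, adjusted p = 0.132). Without shPBRM1 replicate 3, its log2 fold change was 0.24 and the adjusted p was 0.0288, whereas without shPBRM1 replicate 2 they were 0.075 and 0.469. CBX8 had 7.13, 9.61 and 7.85 CPM in shCTL and 7.38, 8.58 and 7.50 CPM in shPBRM1. All 3 shPBRM1 values lay within the shCTL range, and the log2 fold change was -0.081 (95% interval -0.48 to 0.32, adjusted p = 0.516). This interval includes differences of the size seen for RNF2 and EZH1. Summed over the 5 PRC1 members, the libraries held 80.6 to 82.2 CPM in shCTL and 77.6 to 83.3 CPM in shPBRM1.

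By complex, the PRC2 members had 3 calls higher, 1 lower and 1 not called, with a median log2 fold change of 0.19. The PRC1 members had 0 calls higher, 1 lower and 4 not called, with a median of 0.084. Over all tested genes the median was -0.0080. Beside these calls, 31.5% of all tested genes were higher and 33.2% lower. The groups did not overlap for 5 of 5 PRC2 members and for 1 of 5 PRC1 members, beside 68.3% of all tested genes. With 5 genes in each, these counts are a description, and the difference between the complexes was not tested. In each library, RING1, CBX2, CBX8 and PCGF2 had fewer counts than any PRC2 member, and the intervals of CBX2 and CBX8 were the widest of the 10.

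Counts of genes with near-identical copies can be split between them. The SUZ12 pseudogene SUZ12P1 had between 290 and 394 counts per library and no called difference (log2 fold change -0.029, adjusted p = 0.850). The pseudogene of EZH2, EZH2P1, had at most 4 counts per library and that of RNF2, RNF2P1, at most 17. The antisense gene JARID2-AS1 had at most 18 counts, and CISD3, which overlaps PCGF2 on the other strand, at most 162. Whether the counting used the strand is not given in the sources used here, so reads shared between overlapping genes cannot be assigned with certainty.

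To compare the members with each other, CPM was divided by gene length, taken as the union of all annotated exons in kilobases. In the shCTL libraries, the mean levels were 14.0 CPM per kilobase for SUZ12 and 13.5 for EZH2, and their library ranges overlapped. JARID2 followed at 11.6 CPM per kilobase. RNF2 and RING1 came next, at 8.77 and 8.19 CPM per kilobase, with overlapping library ranges, although RNF2 was above RING1 within each library. PCGF2, EZH1 and EED were at 3.67, 2.91 and 2.44 CPM per kilobase. The CBX genes had the lowest means, with CBX8 at 1.97 and CBX2 at 1.74 CPM per kilobase and overlapping ranges. The CBX8 range, up to 2.31 CPM per kilobase, also overlapped that of EED, from 2.29. In the shPBRM1 libraries, EZH2 stood first at 15.4 CPM per kilobase and SUZ12 next at 14.6, RING1 was at 5.42 beside 9.44 for RNF2, and EED at 2.91 stood above EZH1 at 2.15. The order depends on the length used: with the longest annotated transcript in place of all exons, EED stood above EZH1 and PCGF2 in shCTL as well, at 6.18, 4.39 and 4.21 CPM per kilobase. With that length, the shCTL ranges of RNF2 and RING1 did not overlap, at means of 9.90 and 8.50 CPM per kilobase. The same held for SUZ12 and EZH2, at 20.5 and 16.7 CPM per kilobase. In shPBRM1 as well, SUZ12 then stood above EZH2 without overlap, at 21.2 and 19.1 CPM per kilobase. EZH2 thus stood first in shPBRM1 only with the exon union as length.

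The balance between paralogs was then followed in each library as a ratio of levels per kilobase, which does not depend on library scaling. These ratios were chosen after the values were seen. The ratio of EZH2 to EZH1 was 4.34, 4.67 and 4.92 in shCTL and 7.03, 7.0 and 7.41 in shPBRM1, that is 4.64 ± 0.293 and 7.15 ± 0.231 (SD, n = 3), a difference of 0.62 on the log2 scale. The ratio of RNF2 to RING1 was 1.04, 1.11 and 1.07 in shCTL and 1.65, 1.75 and 1.82 in shPBRM1, a difference of 0.70 on the log2 scale. For both pairs the groups did not overlap, and p was 0.1 by a two-sided exact permutation test, the lowest that 3 libraries against 3 can reach. The ratio of CBX2 to CBX8 was 0.896 ± 0.108 in shCTL and 1.04 ± 0.0734 in shPBRM1 (SD, n = 3), with overlapping groups (exact permutation p = 0.2). With the longest transcript as length, the mean ratios were 3.81 and 5.87 for EZH2 to EZH1 and 1.17 and 1.89 for RNF2 to RING1, with the same log2 differences. Thus, the RNA of EZH2 and RNF2 made up more of each pair in shPBRM1 cells, through lower EZH1 and RING1 together with higher EZH2.

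**Figure D2:**
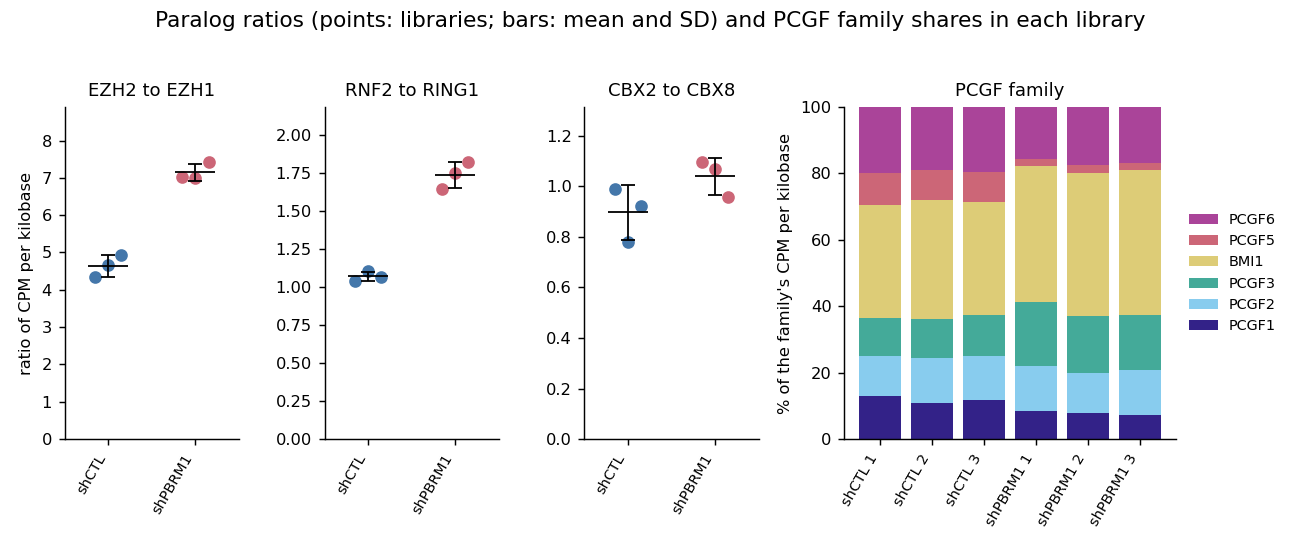
Left, ratios of levels (CPM per kilobase, vertical axes from 0) within 3 paralog pairs in the shCTL and shPBRM1 libraries, with mean and SD; right, shares in % of the summed CPM per kilobase of the PCGF family in each library. The EZH2 to EZH1 ratio is near 4.64 in shCTL and 7.15 in shPBRM1, the mean PCGF5 share is 9.18% in shCTL and 2.31% in shPBRM1, and the mean PCGF2 share is 13.0% in both groups.

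PCGF2 was also set beside its family. Among the 6 PCGF genes, BMI1 (PCGF4) held the largest share of the family's CPM per kilobase, at 34.7% in shCTL and 42.4% in shPBRM1. PCGF6 followed at 19.5% and 16.6%. PCGF2 held 13.0% ± 0.841 in shCTL and 13.0% ± 0.843 in shPBRM1 (SD, n = 3), and PCGF1 11.9% and 7.92%. PCGF5, a subunit of a non-canonical PRC1, held 9.18% in shCTL and 2.31% in shPBRM1, and PCGF3, its closest paralog, 11.8% and 17.8%. Shares are bound to each other within a family, so that a rise of 1 member lowers the share of the others.

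The other genes of the complexes were described from lists by function, to be read beside the 31.5% of all tested genes that were higher and the 33.2% that were lower. Of 10 further PRC2 genes, 8 were tested, with 5 higher and 2 lower in shPBRM1 and a median log2 fold change of 0.30; EPOP and EZHIP were listed at 0. PHF19, a Polycomb-like subunit that binds methylated histone H3 and brings PRC2 to chromatin, rose from 61.7 ± 0.545 to 112.6 ± 2.74 CPM (log2 fold change 0.87, SE 0.022, adjusted p = 3.35e-16). RBBP7, a histone-binding subunit shared with other complexes, rose by 0.67 on the log2 scale (SE 0.030, adjusted p = 1.48e-13); it overlaps TXLNG on the other strand. The list moved in both directions, with AEBP2 and PHF1 lower, at log2 fold changes of -0.32 and -0.46. On the other strand, PHF1 overlaps CUTA, which had up to 6285 counts in a library, beside at most 1545 for PHF1. LCORL, 1 of the genes called higher, likewise overlaps NCAPG, with up to 9346 counts. PHF1 is a Polycomb-like subunit as PHF19 and MTF2 are, and MTF2 was higher by 0.55 on the log2 scale. AEBP2 joins PRC2 together with JARID2, which was higher.

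Of 24 further PRC1 genes, all were tested, with 10 higher and 10 lower and a median log2 fold change of -0.055. The largest difference was that of PCGF5, with 850, 1025 and 1061 raw counts in shCTL and 319, 240 and 370 in shPBRM1 (log2 fold change -1.91, SE 0.072, adjusted p = 8.85e-16). It was the only gene of the PRC1 and PRC2 lists past a 2-fold change. SCML2, a Polycomb group protein that binds PRC1, rose by 0.79 on the log2 scale (SE 0.041, adjusted p = 6.08e-11), and PCGF3 rose by 0.67 (SE 0.040, adjusted p = 1.88e-10). BMI1 rose by 0.37 (adjusted p = 5.90e-07), whereas PCGF2, its closest paralog, was not called.

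Of 12 genes that oppose Polycomb, 11 were tested, with 1 higher and 6 lower and a median log2 fold change of -0.11; ASXL3 was listed at 0. The share called, 7 of 11, was close to the 64.7% of all tested genes and does not set the list apart. The demethylases that remove the PRC2 mark were both lower. KDM6A (UTX) fell from 58.6 ± 3.60 to 39.7 ± 1.10 CPM (log2 fold change -0.56, SE 0.056, adjusted p = 4.64e-10) and KDM6B (JMJD3) from 140.7 ± 6.50 to 92.5 ± 11.5 CPM (log2 fold change -0.61, SE 0.11, adjusted p = 1.77e-09). BAP1, the catalytic subunit of the deubiquitinase that removes the PRC1 mark, was not called (log2 fold change -0.014, adjusted p = 0.763), whereas its partner ASXL1 was higher by 0.27 (adjusted p = 2.17e-06).

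**Figure D3:**
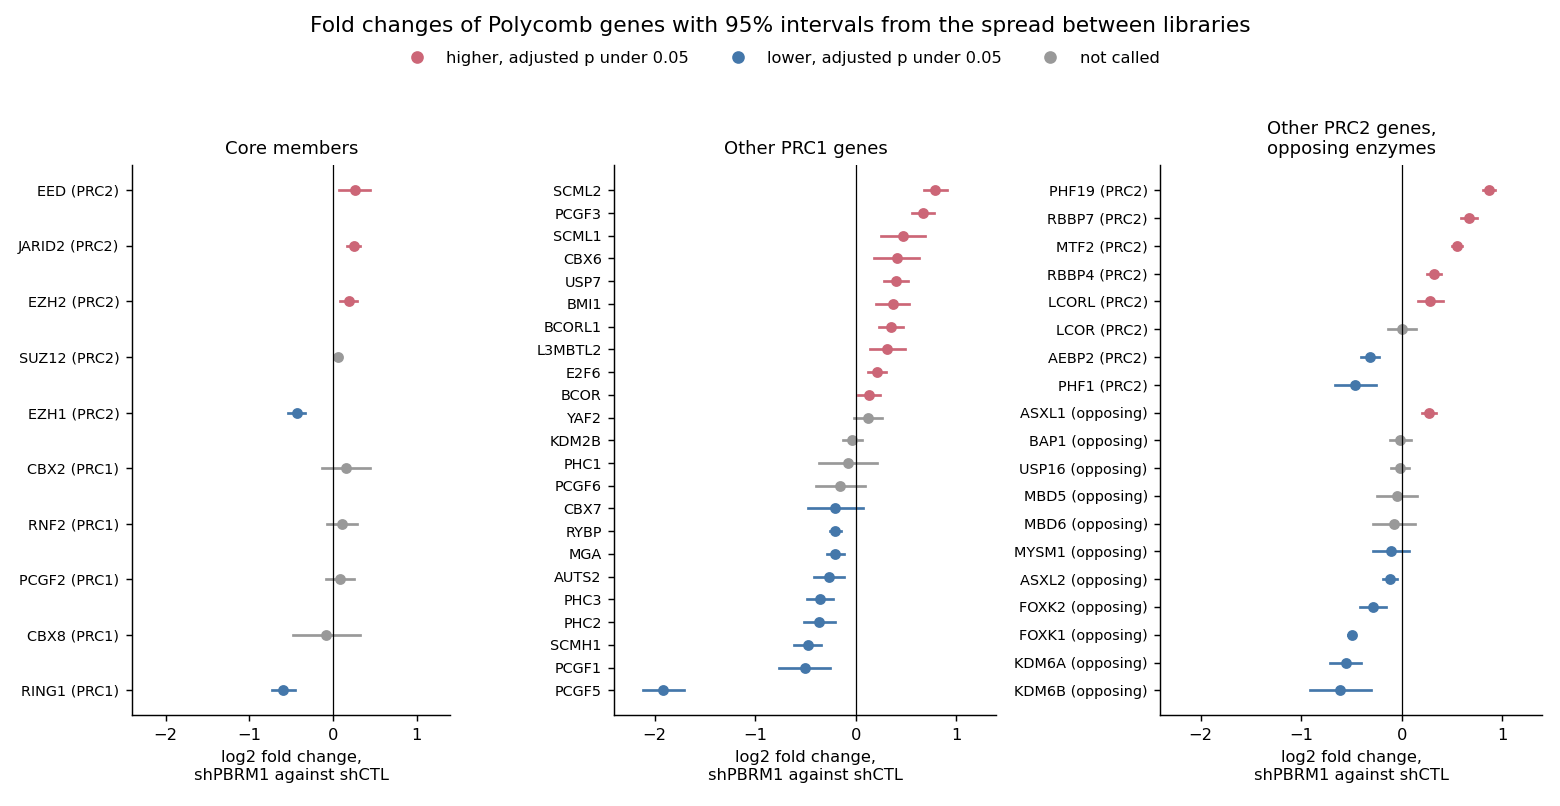
Log2 fold changes (horizontal axis, shPBRM1 against shCTL) of the 10 core members, the other PRC1 genes that are reported here, and the other PRC2 genes with the opposing enzymes; points are estimates, lines 95% intervals from the spread between libraries, and colors the calls of the test. The core members lie between -0.59 and 0.26, PCGF5 stands apart at -1.91, and an interval and a call can differ (SUZ12 is not called with an interval above 0, and CBX7 and MYSM1 are called with intervals that include 0).

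The RNA of genes commonly bound by Polycomb in development was also examined. Of 65 such genes, 39 were tested; the other 26 had low counts, with means of at most 7.67 counts, and 12 of these were at 0 in all libraries. Of the 39, 36 passed the filter in both groups, and PAX9, NKX2-5 and HAND2 passed it through the shCTL group, where they were higher. Among the tested genes, 5 were higher and 23 lower, beside 31.5% and 33.2% of all tested genes, with a median log2 fold change of -0.44. PAX9 and NKX2-5 are among those lower, a direction that passing the filter through shCTL alone favors. The counts hold only genes with enough RNA to test, and the list does not say which of them carry the PRC2 mark in BT-549 cells. Among the genes that fell, LHX9, a LIM homeobox factor, had 289, 512 and 499 counts in shCTL and 22, 12 and 28 in shPBRM1 (log2 fold change -4.62, SE 0.19, adjusted p = 1.15e-16). TBX15, DKK1, CDH1 and KLF4, which encode a T-box factor, a WNT inhibitor, E-cadherin and a zinc finger factor, fell by 2.51, 1.91, 1.73 and 1.55 on the log2 scale. Those that rose were CCND2 (cyclin D2), RUNX3, SFRP1 (a WNT antagonist) and WNT5A, with log2 fold changes of 1.76, 1.37, 1.03 and 0.94, and LHX2 at 0.31, whose call is marginal (adjusted p = 0.0456; 0.108 by DESeq2). The CDKN2A gene, a classic target of PRC1 and PRC2, was not called (log2 fold change -0.070, adjusted p = 0.154).

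Proliferation genes were described in the same libraries. Of 24 genes of the cell cycle and DNA replication, 20 were higher and 1 was lower in shPBRM1, beside 31.5% and 33.2% of all tested genes. Their median log2 fold change was 0.74, and their summed level was 2657 to 2731 CPM in shCTL and 4208 to 4233 CPM in shPBRM1. MYBL2 and CCNA2 rose by 1.39 and 1.15 on the log2 scale, and MCM6 fell by 0.22. Of the PRC2 members, EZH2, EED and JARID2 were higher as well, by 0.19, 0.26 and 0.25 on the log2 scale. EZH1 was lower, at -0.44, and SUZ12 was not called. The part of proliferation genes in the differences of the Polycomb genes was not tested.

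**Figure D4:**
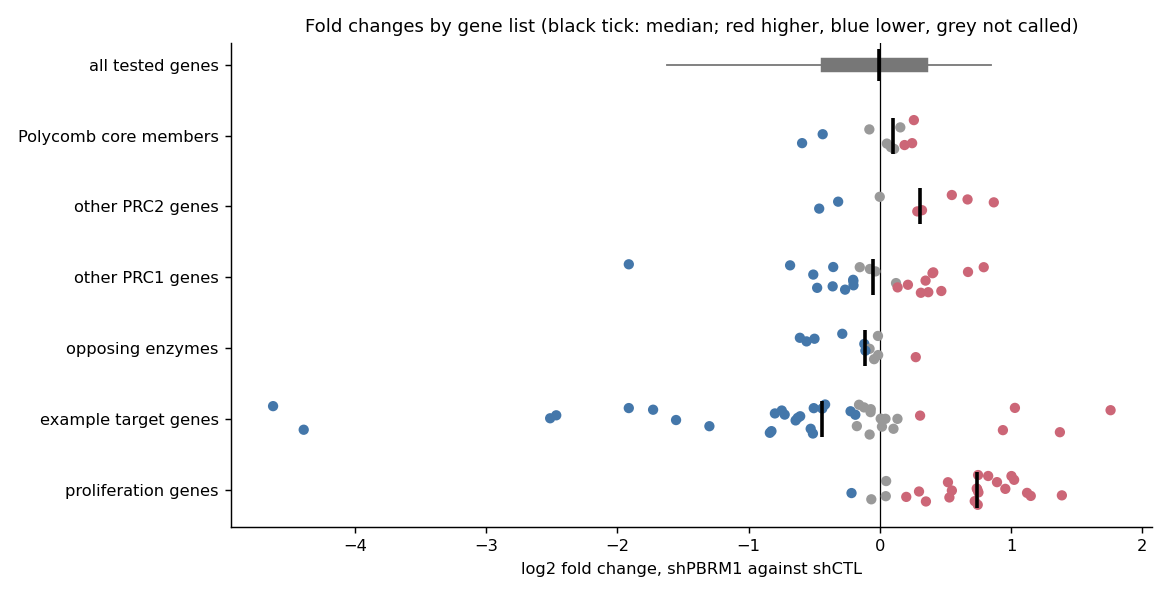
Log2 fold changes (horizontal axis, shPBRM1 against shCTL) of all tested genes (grey box over the middle quartiles, with a line to the tails) and of each tested gene in 6 lists, with black ticks at the medians. The core members lie close to 0 with a median of 0.096, the example target genes extend to -4.62 with a median of -0.44, and the proliferation genes have a median of 0.74.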

How the data were processed

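RNA-seq was analyzed for 6 libraries of BT-549 cells, 3 shCTL and 3 shPBRM1, made with a stranded poly(A) kit. The authors deposited unnormalized raw read counts for each gene symbol. The submitters' processing notes name CASAVA 1.8.2, STAR 2.7.9a, featureCounts, DESeq2 1.24.0 and GRCh38.p7; the annotation and the strand setting of the counting are not given in the sources used here. The titles of the samples gave the group and the replicate number. The control columns of the count table carry the cell line and a number but no shRNA name, and were matched to the control titles by that number. Of the 37887 rows, 14 carried dates in place of symbols and 12608 had no count. Among 34329 nonzero values of at most 10 counts, 62.2% were even, so that some read pairs may have been counted as 2 reads, which would overstate the depth.

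The counts were tested with edgeR 4.0.16 in R 4.3.3 (filterByExpr with a minimum count of 10, TMM factors, glmQLFit and glmQLFTest, Benjamini-Hochberg adjustment over 15450 genes). Standard errors and 95% intervals were computed from log2 CPM (prior count of 2) and its spread between libraries. The scripts were tested on simulated data. Libraries of a group differed by more than sampling noise, the chi-square over its degrees of freedom being 4.66 to 22.6. This value cannot tell separate cultures from repeated preparations of 1 culture. Each library was counted as a replicate because the labels describe triplicate cultures. The replicate numbers come from the titles. Libraries with the same number deviated together from their group means over 5622 genes, with correlations across genes of 0.734, 0.593 and 0.419. Libraries with unlike numbers had correlations from -0.671 to 0.464, the highest of them above the lowest of the same-numbered ones. With 3 libraries a group, these correlations depend on each other. The number was also fitted as a block. Gene positions and lengths are from GENCODE v29 on GRCh38, and promoter sequences from RefSeq on GRCh38.p14.

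The 10 members and the gene lists were chosen with earlier results of these data known. Named in the text are the members, genes of the other Polycomb lists called with a fold change over 1.5 or otherwise the 2 with the largest change, and, with a mean of at least 50 counts, the 5 target genes up and the 5 down with the largest change, and the 2 proliferation genes up and down with the largest change. Other genes named, such as SUZ12P1, TAPBP, BMI1, PCGF1, PCGF6, AEBP2, PHF1, MTF2, BAP1, ASXL1, CBX7, MYSM1 and CDKN2A, were chosen after their values were seen. The alternatives were DESeq2 1.42.0, the replicate block, RLE size factors or library size only, no count filter or a mean of at least 50 counts, each library left out, a test against a 1.2-fold change, a fold change over 2, an adjusted p under 0.001 and the longest transcript as gene length. Results for some genes of the lists are left out of the text and the figures.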

Additional observations from a re-analysis of the deposited data

How the results depend on the processing

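The log2 fold changes of the 10 members kept their direction and side of the threshold in 117 of 120 values under the alternatives. Over the fits without 1 library, the values ranged from -0.45 to -0.41 for EZH1, 0.17 to 0.22 for EZH2, 0.21 to 0.32 for EED, 0.22 to 0.27 for JARID2 and -0.64 to -0.57 for RING1, with each call kept. The other 3 values came from such fits of genes that were not called. RNF2 ranged from 0.048 to 0.16 and passed the threshold without shPBRM1 replicate 1 (0.16). CBX2 ranged from 0.075 to 0.24 and passed it without shPBRM1 replicate 3 (0.24). CBX8 ranged from -0.17 to 0.050 and changed sign without shCTL replicate 2. The count of PRC1 members called higher accordingly ranged from 0 to 1. Against a 1.2-fold change, the members called higher were 0 in place of the 3 PRC2 genes, and with a fold change over 2 the members higher and lower were 0 and 0, in PRC2 as in PRC1. The fit with a replicate block called 10199 genes in place of 10000, and no call of a member changed. At an adjusted p under 0.001, the members called higher were 2 in place of 3, the EED call being lost, and those called lower stayed at 2. DESeq2 called 9317 genes. With library size only, which moved the median log2 fold change by -0.048, the proliferation genes called lower were 2. The call of LHX2 was lost under 7 alternatives, which were added, as were all those for genes other than the members, after seeing the data. The cause of these changes was not tested. With 3 libraries a group, an exact permutation test cannot go below p = 0.1, and the intervals of CBX2 and CBX8, at 266 to 662 counts per library, leave differences of the size of those called elsewhere undetected.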

Other observations

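Among the example Polycomb target genes, those below were chosen after their values were seen. The homeobox gene NKX6-1 had 34.0 ± 1.10 CPM in shCTL and 20.3 ± 0.908 CPM in shPBRM1 (SD, n = 3). Its log2 fold change was -0.75 (adjusted p = 8.62e-11), beside -0.63 for PAX6 and -0.83 for the forkhead gene FOXC1, which were also called lower. CDKN2B, the neighbor of CDKN2A and likewise an inhibitor of cyclin-dependent kinases, fell by 0.80 on the log2 scale (adjusted p = 2.09e-15), while CDKN2A was not called (adjusted p = 0.154); whether these neighbors differed from each other was not tested. PAX9, at 1.87 ± 0.199 CPM in shCTL, was near the floor of detection in shPBRM1, at 0.0939 ± 0.0604 CPM (SD, n = 3). GATA6, IRX5, MEIS2 and PITX1 were expressed above 10 CPM and were not called.

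Among the genes that oppose Polycomb, FOXK1, a forkhead factor that binds the BAP1 deubiquitinase, was also lower, with 435.1 ± 5.04 CPM in shCTL and 307.9 ± 3.67 CPM in shPBRM1 (SD, n = 3; log2 fold change -0.50, adjusted p = 7.88e-11), as was FOXK2 (log2 fold change -0.29, adjusted p = 9.76e-07). USP16, a deubiquitinase of H2A, was not called (adjusted p = 0.764).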
